A study of Mus musculus with 1152 samples.

Results

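Genes of the cell cycle and of DNA replication were followed as 36 members among the 46517 gene rows of a read count table made from single wells of sorted mouse brain cells. The members were taken by name, and all 36 were found in the table. Of them, 12 act in S phase, when DNA is copied (Mcm2, Mcm3, Mcm4, Mcm5, Mcm6, Mcm7, Pcna, Rrm1, Rrm2, Tyms, Hells and Uhrf1). The other 24 act in G2 phase and mitosis (Top2a, Mki67, Cdk1, Aurka, Aurkb, Ccna2, Ccnb1, Ccnb2, Bub1, Bub1b, Birc5, Cenpe, Cenpf, Kif11, Kif20a, Kif23, Kif4, Tpx2, Plk1, Ube2c, Nusap1, Prc1, Racgap1 and Cdc20).

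The cells came from adult C57BL/6 mice of both sexes and of 2 lines, Pdgfra-H2BGFP and Tagl-CREERT2;Ai14. The first line carries a green nuclear reporter under Pdgfra, a growth factor receptor gene used by oligodendrocyte precursors and by fibroblasts, and in the second a recombinase that needs tamoxifen turns on the red reporter of Ai14. Vascular fragments were captured with beads against CD31, an endothelial protein, then digested, and fluorescent cells were sorted into 384-well plates for SMART-seq2, which copies full-length RNA. No label ties a well to a line, an animal or a plate, so all wells count as 1 sample, no test was made, and every difference below is a difference in size without a replicate check.

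A dividing cell first loads the Mcm helicase onto its DNA, then copies the DNA around the sliding clamp Pcna while Rrm1, Rrm2 and Tyms make the building blocks. It then builds up cyclins, mitotic kinases, spindle motors and checkpoint proteins, and much of this program is shut off again after division. Oligodendrocyte precursors are the main cells that go on dividing in the adult brain outside the neurogenic niches, and they stop dividing as they commit to making myelin.

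Of 1152 wells, 857 held at least 50000 reads and were kept, with 50226 to 1061289 reads in the precursor wells described most. Wells were gated by markers that are not members: a lineage was open where at least 3 of its markers reached 100 CPM (counts per 1000000 reads of the well), and a well with more than 1 open lineage was called mixed. This gave 192 oligodendrocyte precursor (OPC) wells, 69 committed precursor (COP) wells, the next stage, 241 oligodendrocyte wells, 25 wells tied between these stages, 63 fibroblast wells, 16 endothelial wells, 201 mixed wells and 34 wells with no open lineage. No well was mural alone, and 6 astrocyte, 4 neuron, 3 choroid plexus and 3 microglia wells were too few for levels. Of the OPC wells, 187 had 4 or 5 of the 5 OPC markers, with a median of 1134 CPM for Pdgfra and 1048 CPM for Cspg4. They also carried the COP marker Gpr17 (median 921 CPM), the myelin gene Mobp (448 CPM) and the astrocyte-list genes Aldoc (468 CPM) and Slc1a2 (364 CPM), while the median was 0 for the endothelial genes Flt1 and Cdh5 and for 6 of 7 mural markers. The well names form 3 sets, and 155 of the 192 OPC wells carried the name 600s_182s, 22 the name 613s and 15 the name 1025s_182s.

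The promoters of members were read from RefSeq windows on GRCm38.p6, from 250 bases before a gene's start to 50 bases after it. They are shown because the members were high in the same wells in blocks, and because early and late cell cycle genes are known for different short promoter elements. The patterns were searched on both strands, namely the cell cycle homology region (CHR), as TTTGAA or TTTAAA, the CCAAT box, as CCAAT, and the E2F site, as TTTCCCGC, TTTGGCGC, TTTGCCGC or TTTCGCGC. The kinds were counted separately, and E2F matches on opposite strands can overlap each other, as they do in Mcm5 and Mcm6. Of the 36 members, 31 had a window (Mcm4, Aurkb, Ccna2, Kif20a and Tpx2 had none), with 13 windows for 11 S and 21 for 20 G2/M members because some have more than 1 start. The 5 sequences below are the 160 bases before the start of Top2a, the enzyme that untangles DNA (chr11:99024190-99024349, minus strand), Kif11, the motor that pushes spindle poles apart (chr19:37376222-37376381, plus strand), Mki67, which coats mitotic chromosomes (chr7:135716380-135716539, minus strand), and Mcm5 (chr8:75109349-75109508, plus strand) and Mcm6 (chr1:128359706-128359865, minus strand), subunits of the replicative helicase. All lie outside annotated exons, read 5′ to 3′ on the gene's strand, and have every match in capitals.
Top2a: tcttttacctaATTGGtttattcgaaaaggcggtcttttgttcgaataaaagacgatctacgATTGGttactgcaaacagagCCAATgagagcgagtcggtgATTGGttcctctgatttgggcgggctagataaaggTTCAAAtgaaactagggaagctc
Kif11: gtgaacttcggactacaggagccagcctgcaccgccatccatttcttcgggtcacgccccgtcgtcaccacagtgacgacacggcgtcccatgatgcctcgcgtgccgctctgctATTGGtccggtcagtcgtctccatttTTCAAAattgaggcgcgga
Mki67: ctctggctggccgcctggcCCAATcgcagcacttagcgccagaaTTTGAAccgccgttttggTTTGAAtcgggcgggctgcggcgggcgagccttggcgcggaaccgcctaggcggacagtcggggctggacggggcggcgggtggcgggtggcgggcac
Mcm5: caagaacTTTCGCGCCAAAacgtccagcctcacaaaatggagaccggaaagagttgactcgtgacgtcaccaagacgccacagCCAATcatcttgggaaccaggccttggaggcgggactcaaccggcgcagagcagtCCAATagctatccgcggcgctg
Mcm6: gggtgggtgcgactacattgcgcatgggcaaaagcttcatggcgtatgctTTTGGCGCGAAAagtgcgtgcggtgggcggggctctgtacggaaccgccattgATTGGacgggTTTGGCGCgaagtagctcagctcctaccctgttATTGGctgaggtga

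The shown stretches differ in their capitals. Top2a holds 4 CCAAT boxes and 1 CHR, which starts 23 bases before the gene's start, Kif11 holds 1 CCAAT box and 1 CHR, which starts 19 bases before it, and Mki67 holds 1 CCAAT box and 2 CHR matches. Mcm5 and Mcm6 hold 2 CCAAT boxes each, no CHR in the bases shown, and 2 and 3 E2F matches. Across the whole windows a CHR was found in 19 of 21 G2/M windows (90.5%), in 4 of 13 S windows (30.8%) and in 27.6% of all 32851 windows of the table. For the E2F patterns the order was the other way round, with 6 of 13 S windows (46.2%), 1 of 21 G2/M windows (4.76%, that of Cdk1) and 2.26% of all windows. The CCAAT box was common to both groups, in 19 of 21 G2/M windows (90.5%) and 11 of 13 S windows (84.6%) against 37.4% of all windows. Of the CHR matches, many lay after the start: with only the 250 bases before it, 12 of 21 G2/M windows (57.1%) and 25.2% of all windows held one. A match is a run of letters and not a measured binding site.

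Most members were higher in OPC wells than in the other oligodendrocyte stages and in fibroblasts, with larger differences for the G2/M members than for the S members. Counts were summed over the wells of a class, and a call of higher or lower needed CPM that differed at least 2-fold with 1 CPM added to each side and 10 CPM in the higher class. Against COP wells, 9 of 12 S members and 22 of 24 G2/M members were higher in OPC wells and none was lower, where 23.6% of all genes tested were higher and 10.9% lower. The median log2 difference was 2.15 for the S members and 4.16 for the G2/M members, and 0.14 over all genes tested. Against oligodendrocyte wells, 11 S and 23 G2/M members were higher (30.4% of all genes), with medians of 1.96 and 3.79 beside 0.37. Against fibroblast wells, 10 S and 23 G2/M members were higher (30.2% of all genes), with medians of 1.91 and 4.87 beside 0.23. In all 3 comparisons all 12 S members and 23 of 24 G2/M members reached 10 CPM on a side, which the OPC wells did in every case.

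**Figure D1:**
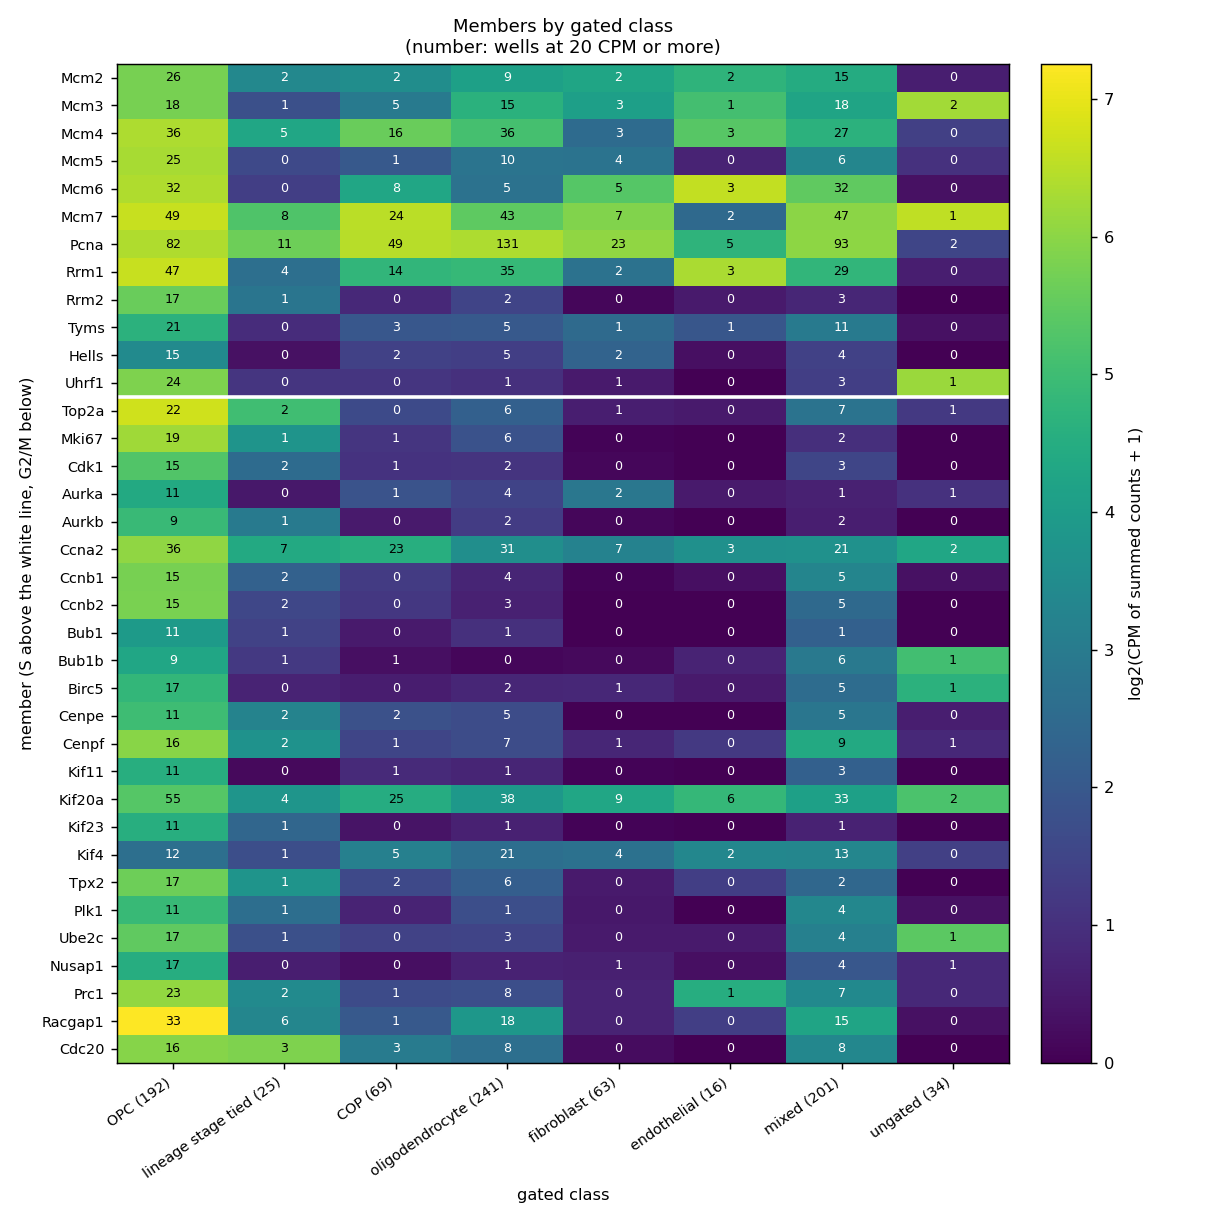
Level of each of the 36 members (rows, S members above the white line) in 8 gated classes (columns, number of wells in brackets), as log2 of CPM of summed counts plus 1, with the number of wells at 20 CPM or more written in each cell. The OPC column is the brightest for nearly all G2/M members (Racgap1 at 152 CPM in OPC and 3.08 CPM in COP wells), while Pcna, Mcm7, Ccna2, Kif20a and Kif4 are present in most columns.

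The scale and the set of wells bear on these counts. When the libraries were scaled by a median of gene ratios instead of the total, the median of all genes moved by -0.39 against oligodendrocyte and -0.22 against COP wells, and the share of called genes that were higher in OPC wells went from 72.8% to 55.5% and from 68.4% to 57.0%. The G2/M counts were then 23 and 22 with no member lower, and the S count against oligodendrocyte wells was 7. Without the set 600s_182s, the G2/M members higher in OPC wells numbered 14 against COP, 15 against oligodendrocyte and 14 against fibroblast wells. Within 1025s_182s alone, 1 of 24 G2/M members and 5 of 12 S members were higher in its 15 OPC wells than in its oligodendrocyte wells. The share of all genes called was not computed within or without a set, so such counts, here and below, have no base beside them.

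Among the S members, the helicase subunits Mcm2 to Mcm7 stood at 53.3 CPM (Mcm3) to 99.1 CPM (Mcm7) in OPC wells. Mcm6 (chr1:128331590-128359664 on GRCm38, minus strand) stood at 82.3 CPM (95% interval 80.1 to 84.6 for counting error alone, since the reads carry no molecular identifiers). It stood at 18.6 CPM in COP, 5.62 CPM in oligodendrocyte, 1.54 CPM in tied, 39.5 CPM in fibroblast, 43.7 CPM in mixed, 0.26 CPM in ungated and 95.9 CPM in endothelial wells. Of the 16 endothelial wells 3 held it at 20 CPM or more and 1 gave 44.0% of its reads, and in OPC wells it reached 20 CPM in 32 of 192, so the levels of both classes came from a minority of wells. Its partner Mcm7 (chr5:138164583-138172422, minus strand) was at 99.1 CPM in OPC wells (96.7 to 102) but also at 90.2 CPM in COP (87.1 to 93.3), 62.6 CPM in mixed, 57.5 CPM in fibroblast, 42.6 CPM in oligodendrocyte, 36.9 CPM in tied and 4.59 CPM in endothelial wells. In wells with no open lineage Mcm7 read 93.2 CPM, of which 1 well gave 99.2%. The exons of Mcm7 share 7.25% of their bases with Ap4m1 and also overlap Mir93, Mir25 and Cops6, and the part of such reads in its level was not tested. Mcm5, by contrast, was at 77.4 CPM in OPC wells and at 3.05 CPM in COP, 5.87 CPM in oligodendrocyte and 5.85 CPM in fibroblast wells.

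Pcna, the clamp that holds polymerases on DNA (chr2:132249162-132253314, minus strand), had the smallest difference of the S members in all 3 comparisons. It read 82.8 CPM in OPC wells (80.5 to 85.0), 87.7 CPM in COP (84.6 to 90.8), 81.4 CPM in oligodendrocyte (79.5 to 83.3), 65.3 CPM in fibroblast, 63.8 CPM in mixed, 49.3 CPM in tied, 25.1 CPM in endothelial and 1.84 CPM in ungated wells. Its level was spread over many wells: 82 of 192 OPC, 49 of 69 COP and 131 of 241 oligodendrocyte wells reached 20 CPM, and with each well thinned to 50000 reads a read was found in 47.4%, 78.3% and 59.3% of them. Pcna has 2 pseudogenes by name, and whether their reads entered its count is not given in the sources used here.

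The enzymes of nucleotide supply differed among themselves. Rrm1, the large subunit of ribonucleotide reductase (chr7:102441695-102469771, plus strand), was at 99.6 CPM in OPC wells (97.1 to 102), 28.2 CPM in oligodendrocyte, 26.6 CPM in COP, 26.4 CPM in mixed, 5.66 CPM in fibroblast, 5.27 CPM in tied, 0.53 CPM in ungated and 79.3 CPM in endothelial wells, where 1 of 16 wells gave 50.7% of its reads. Rrm2, the small subunit that limits the enzyme in S phase, was at 47.3 CPM in OPC wells and at 0.77 CPM in COP, 1.80 CPM in oligodendrocyte and 0.10 CPM in fibroblast wells. Tyms, which makes thymidylate, was at 24.3 CPM in OPC wells and 2.91 CPM in COP wells. The chromatin factor Uhrf1, which carries DNA methylation over to the new strand, ranged from 57.0 CPM in OPC to 1.15 CPM in COP and 1.00 CPM in oligodendrocyte wells. Hells, a chromatin remodeller, was the lowest S member in OPC wells, at 10.1 CPM.

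The G2/M members were led in OPC wells by Racgap1, which directs the cleavage furrow (chr15:99620496-99651656, minus strand), at 152 CPM (149 to 155). It read 3.08 CPM in COP, 13.2 CPM in oligodendrocyte, 9.01 CPM in tied, 18.0 CPM in mixed, 1.53 CPM in endothelial, 0.67 CPM in fibroblast and 0.26 CPM in ungated wells. Top2a (chr11:98992943-99024189, minus strand) was at 106 CPM in OPC wells (103 to 108) and 31.8 CPM in tied wells, of which 1 well gave 94.7%. It read 5.76 CPM in mixed, 3.72 CPM in oligodendrocyte, 2.09 CPM in COP, 1.32 CPM in ungated, 0.52 CPM in fibroblast and 0.44 CPM in endothelial wells. Mki67, the usual marker of dividing cells (chr7:135689784-135716361, minus strand), was at 73.3 CPM in OPC wells (71.2 to 75.5), 12.6 CPM in tied, 2.55 CPM in oligodendrocyte, 1.18 CPM in COP, 0.98 CPM in mixed and 0.05 CPM in fibroblast wells, with 0 reads in endothelial and ungated wells. Outside the OPC and tied wells both thus stayed under 6 CPM.

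Prc1, which bundles the central spindle (chr7:80294450-80316259, plus strand), was at 66.6 CPM in OPC wells (64.6 to 68.7), 10.2 CPM in tied, 9.81 CPM in mixed, 2.32 CPM in oligodendrocyte, 2.14 CPM in COP, 0.79 CPM in ungated and 0.67 CPM in fibroblast wells, and at 21.8 CPM in endothelial wells, where 1 well gave 99.0%. Cenpf, a kinetochore protein (chr1:189640606-189688086, minus strand), was at 61.5 CPM in OPC wells (59.5 to 63.5), 12.0 CPM in tied, 2.23 CPM in oligodendrocyte, 1.87 CPM in COP, 1.31 CPM in endothelial, 0.79 CPM in ungated, 0.71 CPM in fibroblast and 20.0 CPM in mixed wells, where 1 well gave 86.4%. Ccna2, the cyclin of S phase and G2 (chr3:36564865-36572150, minus strand), was at 64.7 CPM in OPC wells (62.7 to 66.7) but also at 22.3 CPM in COP (20.8 to 23.9), 20.1 CPM in tied, 18.4 CPM in ungated, 11.6 CPM in mixed and endothelial, 11.0 CPM in oligodendrocyte and 8.32 CPM in fibroblast wells. Apart from Kif4 and Kif20a, the remaining 16 G2/M members ran from 14.4 CPM (Bub1, a checkpoint kinase) to 60.2 CPM (Cdc20) in OPC wells and from 0.22 to 7.07 CPM in COP wells. In ungated wells, Uhrf1 (70.0 CPM), Ube2c (41.9 CPM), Bub1b (32.7 CPM) and Birc5 (24.5 CPM) owed 98.9% to 100% of their reads to 1 well, so such a level is a value of that well.

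Kif4 and Kif20a, both motors of the spindle midzone, had the smallest differences of the G2/M members between OPC and COP wells. Kif4 was at 5.32 CPM in OPC wells, 7.89 CPM in COP, 9.18 CPM in endothelial and 9.01 CPM in mixed wells, with a log2 difference of -0.49 between OPC and COP wells, and was the only G2/M member never called in these comparisons. Kif20a was at 39.7 CPM in OPC wells and at 12.7 to 35.5 CPM in all the other classes, and was higher than in oligodendrocyte (1.47 on the log2 scale) and fibroblast wells (1.05) but not called against COP wells (0.86). The exons of Kif20a share 29.3% of their bases with Cdc23 on the other strand, those of Kif4 15.1% with Pdzd11 and those of Ccna2 12.5% with Exosc9. In all, 10 members overlap an exon of another gene, and how the counting treated strand is not given in the sources used here, so the part of the partners in these levels was not tested. Per kilobase of exon, the levels in OPC wells ran from 0.96 CPM for Kif4 to 35.8 CPM for the mitotic cyclin Ccnb2, next to Pcna at 34.5 CPM and Cdc20, the activator of the anaphase complex, at 32.2 CPM.

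The G2/M reads of the OPC wells came from few of them. Counting members at 20 CPM or more in each OPC well, 84 wells had none of the 24 G2/M members, 60 had 1, and 32 had 2 to 5. No well had 6 to 9, and 16 wells had 10 to 24, of which 3 had all 24. A well with at least 8 G2/M members was called G2/M-rich and one with at least 6 of 12 S members S-rich. The OPC wells nearest the first limit had 5 and 10 members, whereas the second limit cut through a continuous run, with 2 wells at 5 and 2 wells at 6 S members. The 16 G2/M-rich wells held 9.71% of all reads of the OPC wells, 91.1% of their G2/M member reads and 37.4% of their S member reads, and the 20 S-rich wells held 11.0%, 28.3% and 61.0%. These limits mark ranges of a count and are not cell types or measured phases.

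By these limits 163 of 192 OPC wells (84.9%, exact binomial 95% interval 79.0 to 89.6) were neither, 13 (6.77%, 3.65 to 11.3) were S-rich only, 7 (3.65%, 1.48 to 7.37) were both and 9 (4.69%, 2.17 to 8.71) were G2/M-rich only. G2/M-rich wells were thus 16 of 192 (8.33%, 4.84 to 13.2) and S-rich wells 20 of 192 (10.4%, 6.48 to 15.6). With all wells thinned to 50000 reads these became 20 wells (10.4%) and 28 wells (14.6%). The G2/M-rich wells were 13 of 155 in 600s_182s, 3 of 22 in 613s and 0 of 15 in 1025s_182s. The last count allows up to 20.0% (3 wells of 15), by a rule that gives less than the exact binomial limit. All 13 wells that were S-rich only were in 600s_182s. The 4 ranges had like median depths, with 276609, 239173, 305239 and 285100 reads and 6969, 6962, 7610 and 7680 genes, in the order neither, S-rich only, both and G2/M-rich only. Their lowest values differed, at 50226, 110348, 243071 and 157392 reads and 2312, 6117, 6485 and 6858 genes in the same order. The shallowest wells were thus all among those that were neither.

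In other classes such wells were few. Of 69 COP wells 0 were G2/M-rich and 0 S-rich, which allows a share of up to 4.35% (3 wells of 69, where the exact binomial limit is 5.21%), and the same was found in 0 of 63 fibroblast wells (up to 4.76%, or 5.69% by the exact binomial limit). Of 241 oligodendrocyte wells 1 was both (0.415%, 0.0105 to 2.29). Of the tied wells 1 was G2/M-rich and another S-rich, and of the mixed wells 2 were G2/M-rich and 7 S-rich. All 4 G2/M-rich wells outside the OPC gate had at least 3 OPC markers, as had 6 of the 9 S-rich ones. In the thinned wells, where 1 read counts as 20 CPM, 2 COP and 4 oligodendrocyte wells were G2/M-rich.

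**Figure D2:**
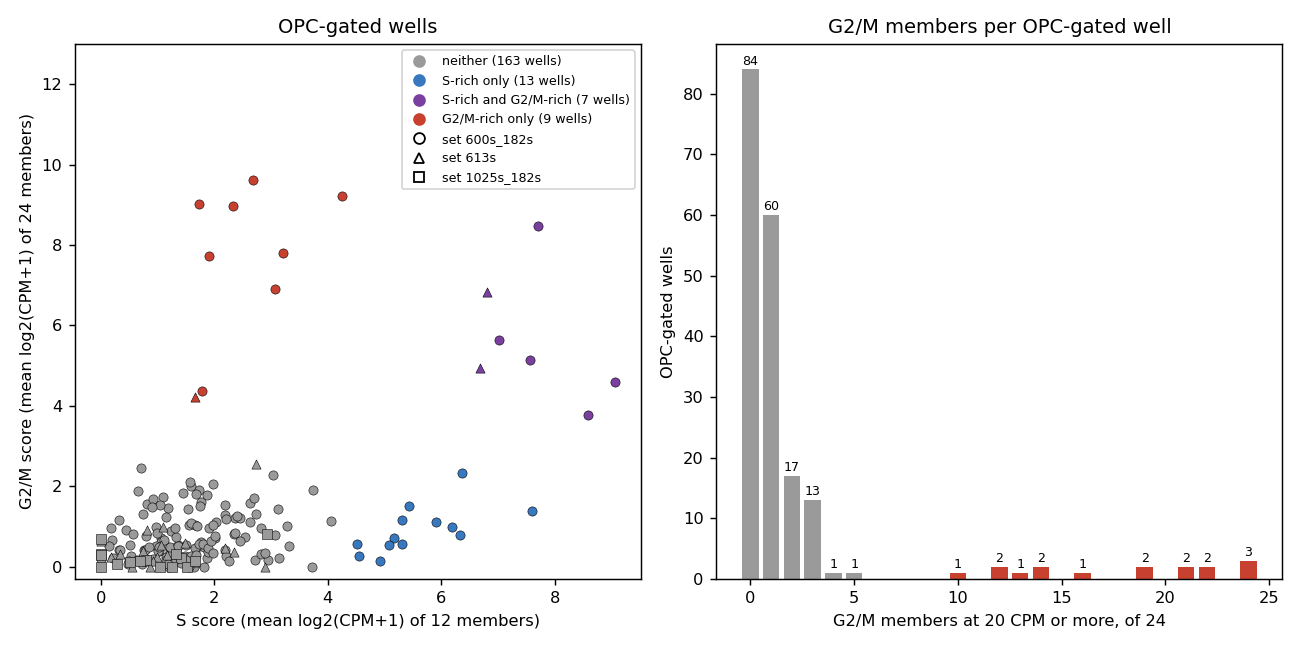
Left, S score against G2/M score (mean log2(CPM+1) over 12 and 24 members) for the 192 OPC wells, coloured by range and shaped by set; right, number of OPC wells (bars) by how many G2/M members reached 20 CPM. Wells lie along both axes with 7 in the upper right, and no well has 6 to 9 G2/M members.

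Without the 29 wells that were S-rich or G2/M-rich, most members stayed below 10 CPM both in the remaining 163 OPC wells and in the class compared, and could not be called. Of the S members, 7, 8 and 8 of 12 reached that level against COP, oligodendrocyte and fibroblast wells, and 1, 2 and 3 were higher. Of the G2/M members, 3, 3 and 2 of 24 reached it and 1 was higher in each comparison, where 23.1%, 29.7% and 29.3% of all genes tested were higher. The G2/M member was Racgap1 each time, with log2 differences of 2.96, 1.16 and 4.25, and Mcm5 was among the S members each time (3.00, 2.24 and 2.24). Within 600s_182s the higher S members numbered 3, 5 and 6 and the higher G2/M members 1, 0 and 1. In all sets together, Ccna2 was lower than in COP wells (-1.43), and Mcm3 was lower than in oligodendrocyte (-1.92) and fibroblast wells (-1.39). Racgap1 reached 20 CPM in 16 and Pcna in 59 of the 163 wells. Since the 29 wells were set aside by the levels of these members, the drop follows from the choice and is a description of where the reads lay.

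Scores summarise the same wells. The S score, the mean log2(CPM+1) over the 12 members, had a median of 1.60 in OPC wells (SD 1.73, highest 9.07), 1.67 in COP (SD 0.64, highest 3.46), 1.02 in oligodendrocyte (SD 0.78) and 0.80 in fibroblast wells (SD 0.63). The G2/M score had medians of 0.61 (SD 1.84, highest 9.62), 0.82 (SD 0.59, highest 2.98), 0.34 (SD 0.58) and 0.20 (SD 0.24) in the same order. The median OPC well was thus no higher than the median COP well in either score. The OPC wells differed from it in their spread and their highest values.

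Across OPC wells the S score and the G2/M score were related unevenly. Over all 192 wells Pearson's r was 0.43 and Spearman's rho 0.39, and on thinned wells 0.40 and 0.29. Over the 16 G2/M-rich wells r was -0.42 (rho -0.24), and over the 176 others 0.25 (rho 0.28). Within the sets r was 0.36 (rho 0.31) over 155 wells of 600s_182s and 0.26 (rho -0.05) over 15 wells of 1025s_182s. Over 22 wells of 613s, where 3 wells were G2/M-rich, r was 0.82 but rho 0.35. Wells share their read depth between both scores, and within the 163 wells that were neither, r was 0.25, and 0.12 on thinned wells, which is too weak to be read. In COP wells r was 0.05.

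The highest wells show the shape better than r. The 9 wells that were G2/M-rich only had G2/M scores of 4.21 to 9.62 and S scores of 1.66 to 4.25. The 7 wells that were both had G2/M scores of 3.76 to 8.48 and S scores of 6.68 to 9.07. The 13 wells that were S-rich only had S scores of 4.52 to 7.61 and G2/M scores of 0.14 to 2.34. The highest S score, 9.07, went with a G2/M score of 4.60 and the highest G2/M score, 9.62, with an S score of 2.68, but 1 well that was both had an S score of 7.70 and a G2/M score of 8.48, the third and the fifth highest.

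**Figure D3:**
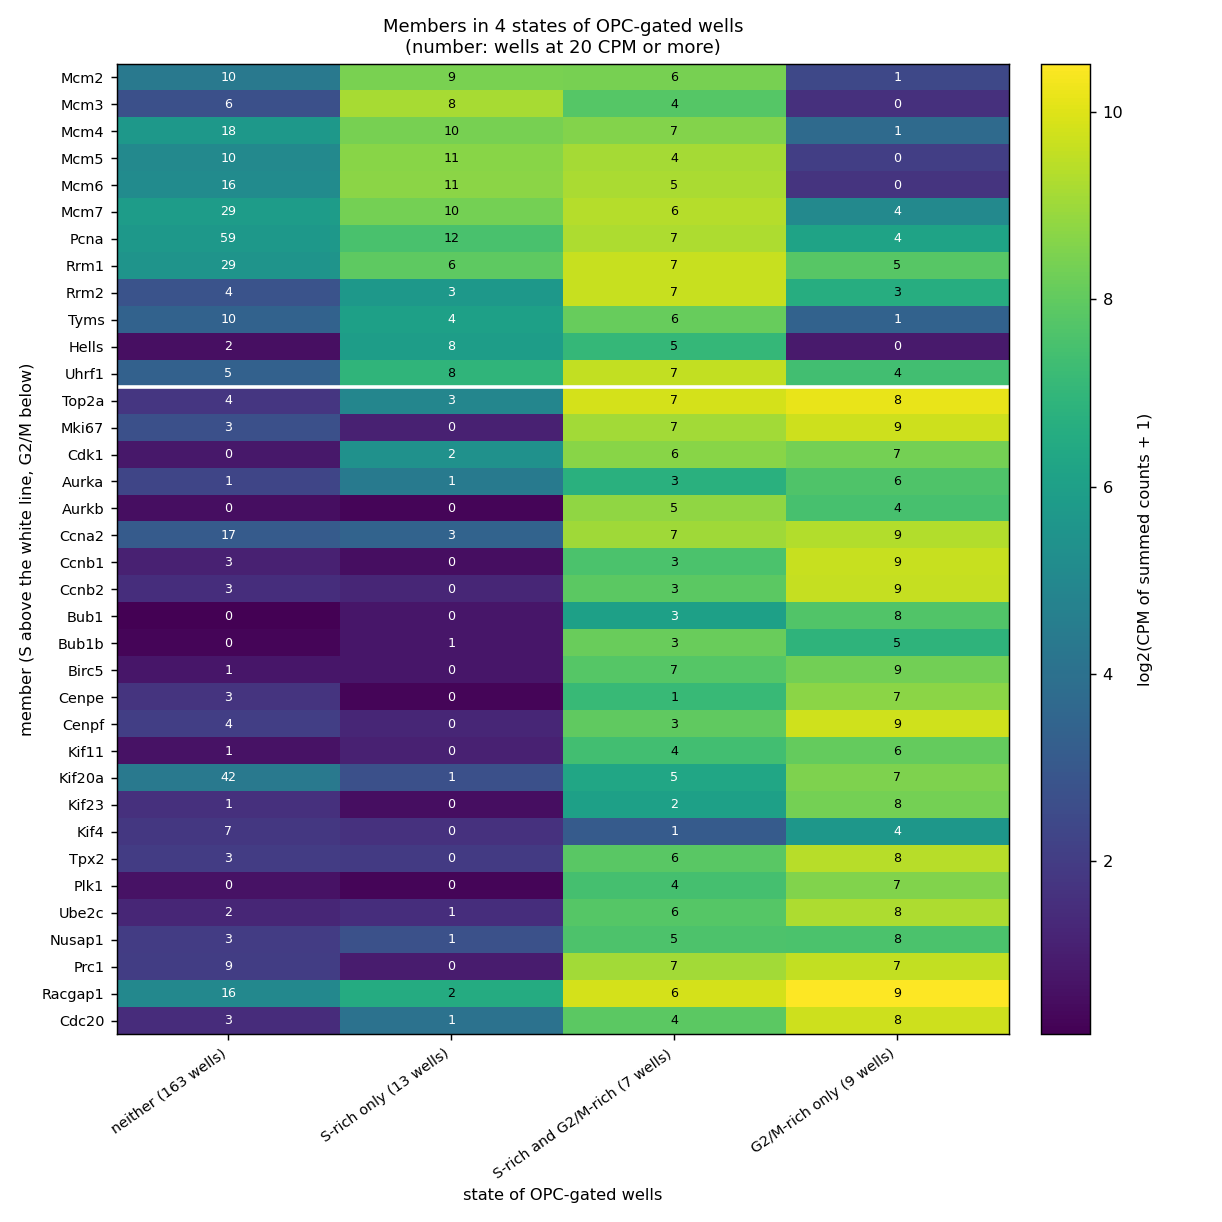
Level of each member (rows) in the 4 ranges of OPC wells (columns, number of wells in brackets), as log2 of CPM of summed counts plus 1, with the number of wells at 20 CPM or more in each cell. The helicase genes are bright in the middle columns and dark in the G2/M-rich only column (Mcm6 at 419, 590 and 2.31 CPM), and the mitotic cyclins are brightest in the last (Ccnb1 at 798 CPM).

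The members themselves chose the 4 ranges, so their levels in them are given without any reading of the counts. In S-rich only wells all 12 S members were higher than in wells that were neither, where 15.4% of all genes tested were higher. In G2/M-rich only wells, against wells that were both, all 12 S members were lower (30.2% of all genes) and 12 of 24 G2/M members higher (29.1%). The members within each group did not follow each other exactly, and this order within a group is not fixed by the limits.

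The helicase genes were high in both S-rich ranges and low in G2/M-rich only wells. Mcm6 stood at 34.6 CPM in wells that were neither, 419 CPM in S-rich only (2.21 to 1072 by well, median 607), 590 CPM in both and 2.31 CPM in G2/M-rich only wells. Mcm5 stood at 31.4, 410, 550 and 3.17 CPM and Mcm3 at 5.53, 576, 217 and 2.02 CPM in the same order. None of the 9 G2/M-rich only wells held Mcm3, Mcm5 or Mcm6 at 20 CPM, and 1 of 9 held Mcm2 and Mcm4. Hells, at 60.5 CPM in S-rich only and 132 CPM in both, was at 0.87 CPM in G2/M-rich only wells.

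Rrm1, Rrm2, Uhrf1 and Pcna had the smallest differences of the S members between wells that were both and G2/M-rich only wells. Rrm1 stood at 44.5 CPM in neither, 247 CPM in S-rich only, 797 CPM in both (354 to 1160 by well) and 225 CPM in G2/M-rich only wells. Rrm2 was highest in wells that were both, at 805 CPM (142 to 1265 by well), against 50.7 CPM in S-rich only and 97.5 CPM in G2/M-rich only wells. Uhrf1 stood at 122, 764 and 165 CPM and Pcna at 184, 596 and 70.1 CPM in S-rich only, both and G2/M-rich only wells. Of the 7 wells that were both, all 7 held Pcna, Rrm1, Rrm2, Uhrf1 and Mcm4 at 20 CPM. Against wells that were both, G2/M-rich only wells were lower by 7.48 (Mcm6) at one end and 1.82 (Rrm1) at the other on the log2 scale.

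Several G2/M members were high in the wells that were both as well as in G2/M-rich only wells. Top2a, the DNA-untangling enzyme, stood at 910 CPM there (357 to 2016 by well) and at 1150 CPM in G2/M-rich only wells (6.00 to 3291). Mki67 stood at 533 CPM (115 to 1189) and 836 CPM (315 to 2014), and Ccna2 at 527 CPM (20.6 to 792) and 642 CPM (122 to 1530). Mki67, Ccna2 and Birc5, the survivin subunit of the Aurora B complex, reached 20 CPM in all 16 G2/M-rich wells. Top2a, Prc1 and Nusap1, a microtubule bundler, reached it in 7, 7 and 5 of the 7 wells that were both.

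The mitotic cyclins and late kinetochore genes were uneven instead. Ccnb1, the cyclin that drives entry into mitosis, stood at 798 CPM in G2/M-rich only wells (373 to 1345, 9 of 9 wells at 20 CPM) and at 191 CPM in wells that were both (0 to 722, 3 of 7 wells). Ccnb2 stood at 775 CPM (412 to 1376) and 241 CPM (0 to 959), and Cenpf at 866 CPM (365 to 3175) and 253 CPM (1.83 to 1048), each with 9 of 9 and 3 of 7 wells. Cenpe, the kinetochore motor, reached 20 CPM in 7 of 9 and 1 of 7 wells. Cdc20 stood at 855 and 241 CPM and the kinase Plk1 at 369 and 176 CPM, while the kinase Aurka was not called, at 200 and 105 CPM. Kif23, Kif20a and Kif4, motors of the midzone, had the largest differences, at 2.31, 2.23 and 2.50 on the log2 scale.

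Aurkb and Bub1b were the only G2/M members lower in G2/M-rich only wells by the 2-fold limit. Aurkb, the kinase of the chromosomal passenger complex, stood at 181 CPM there and 446 CPM in wells that were both, and Bub1b, a checkpoint protein, at 117 and 283 CPM. Of the reads in wells that were both, 1 well gave 55.8% for Aurkb and 66.7% for Bub1b. Within 600s_182s, which held 8 and 5 of these wells, Bub1b was not lower (0.24 on the log2 scale) and 1 G2/M member was. Cdk1, the kinase that the mitotic cyclins activate, differed by less than that limit, at 325 and 404 CPM.

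In S-rich only wells the G2/M members divided too. Of 24, 7 reached 10 CPM in these or in wells that were neither. Of those, 5 were higher and 1, Kif20a, lower (-1.66), where 15.4% of all genes tested were higher and 30.6% lower. The higher ones were Cdk1 (41.3 CPM against 0.75 CPM), Top2a (29.2 against 2.46 CPM), Racgap1 (90.8 against 30.7 CPM), Cdc20 (15.9 against 1.81 CPM) and Aurka (20.8 against 4.02 CPM). All but Racgap1 reached 10 CPM only in the S-rich only wells, so a call for them could only be higher. A few wells carried them: 1 of 13 wells gave 75.1% of the reads of Cdk1, 76.0% of those of Top2a, 95.9% of those of Racgap1, 92.6% of those of Cdc20 and 98.9% of those of Aurka. Ccnb1, Ccnb2, Cenpe and Birc5 reached 20 CPM in 0 of the 13 wells.

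Members also differed in how closely they followed the rest of their group across the 192 OPC wells. Pearson's r of log2(CPM+1) with the mean of the other members of the group ran from 0.41 (Kif20a) and 0.43 (Kif4) to 0.90 (Birc5) among the G2/M members, and from 0.40 (Rrm1) to 0.67 (Hells) among the S members. Rrm2 and Uhrf1 were the S members with the highest r to the G2/M members, at 0.52 each beside 0.60 and 0.59 to their own group. Rrm1 was next, at 0.41 beside 0.40. The order depends on the measure. By Spearman's rho Rrm2 followed the other S members most closely (0.46), and Uhrf1 lay nearer the G2/M members (0.40 against 0.36). All values share the depth of each well.

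The S members in the 16 G2/M-rich wells were not used to choose those wells. Against the 176 other OPC wells, 11 of 12 were higher (16.2% of all genes tested), with a median log2 difference of 2.12 beside -0.05 over all genes. Rrm2 (5.26) and Uhrf1 (4.47) had the largest differences and Mcm4 (1.26) and Mcm3 (0.92, not called) the smallest. These differences did not hold for all 16 wells. The 9 G2/M-rich only wells lay below the 176 others for Mcm2 to Mcm7, Tyms and Hells (Mcm6 at 2.31 against 63.9 CPM). These 9 were set apart by holding fewer than 6 S members at 20 CPM, and the 176 include the 13 S-rich only wells. Low S levels in the 9 thus follow in part from the choice. Against the 163 wells that were neither, Mcm2 to Mcm7 were still lower. Tyms was level there (9.52 against 9.63 CPM) and Hells was not lower (0.87 against 0.48 CPM). The 9 wells lay above the 176 others for Pcna, Rrm1, Rrm2 and Uhrf1 (Rrm2 at 97.5 against 9.41 CPM). For Pcna the difference was under 2-fold, at 70.1 against 60.0 CPM. Of the reads in the 9 wells, 1 well gave 71.0% for Rrm2, 74.9% for Pcna, 45.4% for Rrm1 and 42.8% for Uhrf1. Rrm2 reached 20 CPM in 3 of the 9 wells. The 24 G2/M members, which chose the wells, differed by 3.18 (Kif4) to 7.99 (Ccnb1). Within 600s_182s the counts were 11 and 24.

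Precursor identity was measured with the gate's own OPC markers, which were not members. Pdgfra had a median of 1129 CPM in neither, 1249 CPM in S-rich only, 639 CPM in both and 1547 CPM in G2/M-rich only wells, and its lowest value in the last was 654 CPM. Cspg4, the NG2 proteoglycan of precursors, had medians of 1055, 1467, 353 and 830 CPM. Lhfpl3 had medians of 727, 919.7, 679 and 583 CPM, Ptprz1 of 3125, 2649.6, 2148 and 2814 CPM and C1ql1 of 347, 192, 292 and 54.4 CPM in the same order. Summed, the 5 markers had medians of 6806, 7315, 4091 and 5754 CPM, so the markers differed in which range was highest. Gpr17, a receptor of committing precursors, had medians of 1038, 236, 488 and 538 CPM, with 0 to 6465 CPM among the wells that were neither, so all 4 ranges overlap. Enpp6 and Bmp4, markers of commitment, stayed low, with medians of 28.4 to 36.2 CPM and 7.02 to 14.5 CPM over the 4 ranges.

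Markers of other cell types were given for the same wells. The summed level of 5 astrocyte markers had a median of 1019 CPM in neither, 959 CPM in S-rich only, 1117 CPM in both and 89.6 CPM in G2/M-rich only wells (26.4 to 632 CPM by well). Summed fibroblast markers had medians of 56.4, 43.5, 32.9 and 24.0 CPM and summed endothelial markers 18.9, 7.26, 16.5 and 3.51 CPM in the same order. Summed microglia markers were higher in wells that were both, at a median of 138 CPM (21.9 to 378) against 16.2 CPM in neither. Their part in the differences between ranges was not tested.

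Genes of the cell cycle that are not members were listed in 9 lists with 112 genes in the table. In G2/M-rich against other OPC wells, 110 reached 10 CPM, 97 were higher and 2 lower, with a median log2 difference of 3.83. Among all genes tested there, the share called higher was 16.2% and the share called lower 22.7%, beside a median difference of -0.05. By role, all 12 kinetochore and checkpoint genes (median 5.45), all 29 spindle, cytokinesis and mitotic entry genes (5.43) and all 9 condensin, cohesin and separase genes (4.11) were higher. Of the genes of DNA copying, 13 of 14 for origin licensing and firing (2.76), 13 of 15 for polymerases and the fork (2.44), 4 of 5 for nucleotide supply (1.72) and 4 of 6 for chromatin assembly (1.50) were higher. Genes of the lists are co-expressed in dividing cells, so the lists are not separate evidence.

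**Figure D4:**
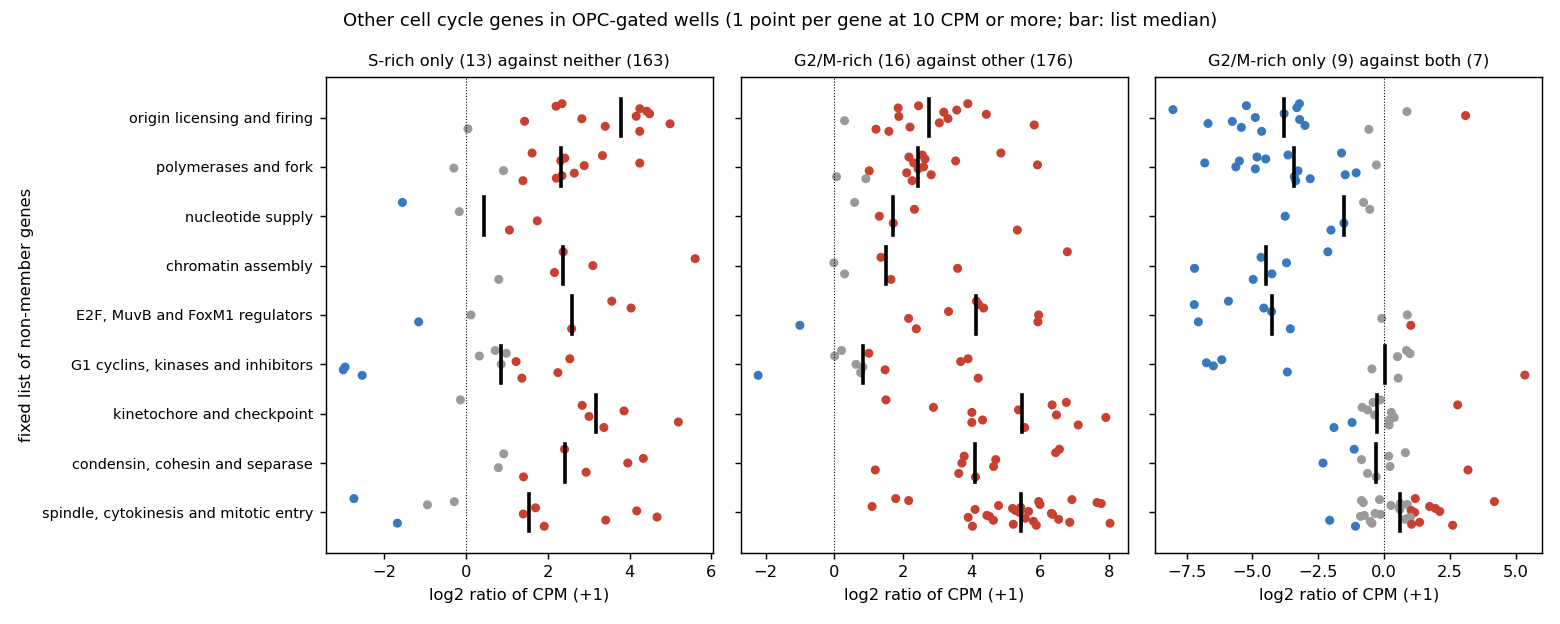
Log2 difference of the listed cell cycle genes that are not members and reached 10 CPM (points), by list, with the list's median as a line. The left panel sets S-rich only wells against wells that were neither. The middle panel sets G2/M-rich against other OPC wells, and the right panel G2/M-rich only wells against wells that were both. In the middle panel the kinetochore and spindle lists lie highest, with medians of 5.45 and 5.43, and the G1 list lowest, at 0.83.

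Values of single genes show the range inside each list. Pbk, a mitotic kinase, was at 731 CPM in G2/M-rich wells (259 to 1749 by well, 16 of 16 at 20 CPM) and 1.81 CPM in the others. Cdca3, which helps degrade Wee1, differed by 7.77, Nuf2 and Spc25, which join kinetochores to microtubules, by 7.90 and 7.10, and Cdca5 and Espl1, the guard and the cutter of cohesin, by 6.55 and 6.44 on the log2 scale. Of the 16 wells, 14 held Cdca3 at 20 CPM, 15 Nuf2, 12 Spc25, 7 Cdca5 and 8 Espl1. At the low end of these lists were Cit at 1.10, Pttg1 at 1.19 and Bub3 at 1.50.

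Among genes of DNA copying, Mcm10 differed by 5.82 and Dtl by 4.43, the leading-strand polymerase gene Pole by 5.91 and the fork mediator Clspn by 4.85, Tk1, which salvages thymidine, by 5.33 and Dck by 2.33, and the histone chaperones Asf1b by 6.78 and Chaf1b by 3.59. A part of the 16 G2/M-rich wells carried them. Mcm10, Dtl and Pole reached 20 CPM in 6 wells each, Clspn, Tk1 and Dck in 8 each, Asf1b in 7 and Chaf1b in 5. Lowest in their lists were Gins4 at 0.30, Rfc5 at 0.07, Ctps at 0.59 and Chaf1a at -0.01. Of the regulators, 8 of 9 were higher (16.2% of all genes tested), led by Foxm1 (301 against 3.90 CPM, 12 of 16 wells at 20 CPM) and Mybl2 (72.8 against 0.21 CPM, but 3 of 16 wells). Rb1, the brake on E2F, was lower, at 16.5 against 34.1 CPM.

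The list of G1 genes had the lowest median, 0.83, with 5 of 11 higher and 1 lower (16.2% and 22.7% of all genes tested). Cdkn2c, an inhibitor of the G1 kinases, was at 305 against 15.8 CPM and Ccne1, the cyclin of S phase entry, at 39.2 against 1.71 CPM but in 2 of 16 wells at 20 CPM. Cdkn1c, another inhibitor, was lower, at 1.82 against 12.1 CPM. The D cyclins were high in all OPC wells, with Ccnd1 at 1241 against 1073 CPM and Ccnd3 at 361 against 358 CPM, and neither was called.

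The lists were compared between the other ranges too. In G2/M-rich only wells against wells that were both, 14 of 15 polymerase and fork genes, 12 of 15 licensing genes, 6 of 6 chromatin assembly genes and 6 of 9 regulators were lower (30.2% of all genes tested), and 0, 1, 0 and 1 higher. Cdt1, the licensing factor, was at 0.29 against 333 CPM and Slbp, which holds histone messages, at 14.7 against 492 CPM. Of the 29 spindle and mitotic entry genes 10 were higher, a share near the 29.1% of all genes tested, and 2 lower, and of the 12 kinetochore and the 9 condensin and cohesin genes 1 was higher and 2 were lower in each list. Among the higher ones was Cdc25c, the phosphatase that activates Cdk1, at 130 against 6.21 CPM. In S-rich only wells against wells that were neither, 11 of 12 licensing genes and 10 of 12 polymerase genes that reached 10 CPM were higher, and none lower (15.4% and 30.6% of all genes tested). So were 5 of 6 kinetochore, 5 of 7 condensin and cohesin and 6 of 10 spindle genes that reached it, with 0, 0 and 2 lower. The whole lists hold 12, 9 and 29 genes. A gene under 10 CPM in wells that were neither could reach that level only through the S-rich only wells. These counts thus do not stand for the whole lists. The S-rich only wells held Cdkn1a, the p53-driven inhibitor, at 3.03 CPM against 31.4 CPM.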

How the data were processed

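SMART-seq2 wells of sorted brain cells were used as counts of reads per gene, deposited by the authors as whole numbers and not normalized. In the submitters' processing notes stand featureCounts (Subread 1.4.6-p5), SAMtools 0.1.18 and TopHat2 2.1.1, and GRCm38 and mm10 as builds. Annotation, strandedness and handling of multi-mapped reads were not given in the sources used here.

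Wells with at least 50000 reads were kept (857 of 1152) and scaled to CPM by their own total. No 2 kept wells held identical counts, and no doublet caller was run on these sorted wells. Classes were compared by CPM of summed counts with exact Poisson intervals and shares by exact Clopper-Pearson intervals, both at 95%. No test was made, because all wells are 1 sample. The members, the other gene lists, the gates and the limits were chosen with earlier results of these data known.

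Values in every class were given for the 4 S and 6 G2/M members with the highest CPM in OPC wells. Named among the other genes were, per list, those with the 2 largest differences and the smallest, and members that went against their group; other genes were named after their values were seen. Coordinates and exon overlaps come from a match by symbol to GENCODE vM21 (36 of 36), promoters from RefSeq. Thinning drew 50000 reads per well with seed 1. Python 3.11.15, pandas 2.3.3, numpy 2.4.6 and scipy 1.17.1 were used, and the ratios and calls were tested on simulated counts.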

Additional observations from a re-analysis of the deposited data

Results flagged for a closer look

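Among the 295 wells under 50000 reads, which no comparison used, 7 held reads of at least 8 of the 24 G2/M members, where the median of all 295 was 1 member. These 7 wells had 22909 to 48632 reads, 9 to 16 G2/M members and 3 to 9 S members with a read. Of them 6 had at least 3 OPC markers at 100 CPM, 5 were in 600s_182s and 2 in 613s. All 295 wells together held 986 reads of G2/M members.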

How the results depend on the processing

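Over the alternatives, 91 values stayed within a set limit of the main value and 18 moved beyond it. The limits were 1.5-fold for counts, 0.25 on the log2 scale for score differences and 0.1 for r. For shares the limit was the exact binomial interval. The score limit was wide for the G2/M score. Its median in OPC wells exceeded that of oligodendrocyte wells by 0.27. With 10 CPM added this difference was 0.09, which still counted as within the limit. Without the set 600s_182s, which held 155 of 192 OPC wells, the S members higher in OPC wells numbered 6 against oligodendrocyte and 6 against fibroblast wells, the G2/M members 15, 14 (COP) and 14 (fibroblast), and S-rich wells were 5.41% of OPC wells. With a median of gene ratios as the scale, 7 S members were higher than in oligodendrocyte wells. Without S-rich or G2/M-rich OPC wells, an alternative chosen after seeing the data, the S counts were 2 (oligodendrocyte), 1 (COP) and 3 (fibroblast), and the G2/M counts 1, 1 and 1. With 10 CPM added, the median S score of OPC wells exceeded that of oligodendrocyte wells by 0.19 instead of 0.58. Pearson's r between the scores was 0.25 without G2/M-rich wells, 0.26 within 1025s_182s and 0.82 within 613s, against 0.43. Spearman's rho was 0.28, -0.05 and 0.35 in the same order, against 0.39. The CHR share of G2/M windows was 57.1% before the start only. The causes were not tested, beyond the fewer wells or bases that these alternatives hold. At 50000 reads 1 read is 20 CPM, so levels near that value in single wells are limited by depth. No paired analysis was possible because the labels give the wells no groups or replicate numbers.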
